A study of Mus musculus with 35 samples.

Results

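The genes described here are the subunits of the mitochondrial respiratory chain and of ATP synthase, together with the complex I assembly factors that share their names. All gene names in the deposited tables that begin with Ndufa, Ndufb, Ndufc, Ndufs, Ndufv, Uqcr, Cox4 to Cox8 or Atp5 were taken, with Sdha to Sdhd and the 13 protein genes of the mitochondrial genome, and names of pseudogenes (-ps) were left out. This gave 106 genes, 93 of them encoded in the nucleus and 13 in mitochondrial DNA. The tables of the back skin libraries hold 105 of them among 53715 genes, and those of the other libraries hold all 106 among 49585 genes, with Atp5sl as the extra name. By complex, the nuclear genes comprised 36 complex I subunits, 8 complex I assembly factors (the Ndufaf genes), 4 genes of complex II, 8 of complex III, 20 of complex IV and 17 with an Atp5 name. Ndufa4 and Ndufa4l2 carry complex I names and were placed with complex IV, where the Ndufa4 protein is now known to sit. Atp5s and Atp5sl have Atp5 names without being subunits of the enzyme.

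The respiratory chain passes electrons from NADH (complex I) and succinate (complex II) through complex III to oxygen at complex IV, and complexes I, III and IV pump the protons that drive ATP synthase (complex V). Complexes I, III, IV and V are built from subunits of both genomes, while all 4 subunits of complex II are nuclear. The mitochondrial genes are transcribed as long precursors from both strands of the circular genome by their own polymerase, and the nuclear genes one by one under factors such as NRF1, the ETS factor GABP and YY1. Epidermal basal cells are attached to the basement membrane and divide, spinous and granular cells lie above them, and the bulge is the hair follicle region that holds its stem cells.

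RNA was measured in 35 libraries of 13 groups of sorted epithelial cells from mice of the K5-tTA/pTRE H2B-GFP genotype on C57BL/6J at 2 months of age. In these mice the keratin 5 promoter drives the transactivator that switches on a histone-GFP label in keratinocytes, and doxycycline in the chow stops new label, so that cells that divide little retain it. All groups received doxycycline, skin for 2 weeks and oral tissues for 10 days, and there was no group without it. Label-retaining cells (LRC, slow-cycling per the labels) and non-label-retaining cells (nLRC, fast-cycling) of the basal layer were compared in back skin and tail skin (3 libraries each) and in palate and tongue (2 libraries each). From back skin there were also LRC and nLRC of the spinous layer, granular layer cells without a label class and bulge cells, and from tail skin bulge cells, with 3 libraries each. Cells were released by overnight trypsin and sorted into Trizol, and libraries were made from total RNA with the SMARTer Stranded Total RNA-Seq Kit v2. Whether replicate libraries come from different mice is not on the labels, so the p-values reflect only the spread among these libraries, part of which may be technical. In bulk samples of this kind, fewer cells of a type and less RNA per cell cannot be told apart.

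Total gene reads per library were 9785944 to 20560481 in back skin, 8421582 to 14093720 in tail, 11680595 to 15641556 in palate and 11847897 to 13034075 in tongue. The back skin tables and the other tables were not processed alike: they list 53715 and 49585 genes, and only the former give mitochondrial ribosomal RNAs 0 TPM. A few features that take ribosomal RNA-like reads held 0.0970 to 1.18% of reads in back skin and 9.39 to 19.8% elsewhere. Whether that gap arose in the libraries or in processing was not tested. Libraries that stood apart in depth or composition were bulge library 2 of back skin (9785944 reads, a TMM scaling factor of 0.50 and an intron read share of 8.70% in the median gene), bulge library 3 of tail (8421582 reads) and nLRC library 2 of palate (scaling factor 0.67, intron share 4.68%). The libraries labelled back spinous nLRC carried the 4 spinous keratinocyte markers (Krt1, Krt10, Krtdap, Sbsn) at a summed 2063 to 3872 CPM (reads scaled to the library total), within the order of the back basal groups (1917 to 3255) and below the spinous LRC (10495 to 15717), so their labelled layer is not marked by these genes. The 5 basal keratinocyte markers (Krt5, Krt14, Itga6, Itgb4, Col17a1) were present in all libraries.

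The mitochondrial genes made up a small part of each library, and the 2 parts of the chain were close in read number in back skin and far apart elsewhere. In back basal LRC the 13 mitochondrial genes took 0.344, 0.310 and 0.452% of total gene reads and the nuclear members 0.324, 0.344 and 0.391%. In back basal nLRC the shares were 0.422, 0.370 and 0.443% against 0.383, 0.412 and 0.406%. In spinous LRC they were 0.286, 0.350 and 0.296% against 0.289, 0.299 and 0.313%, the lowest nuclear shares of the back skin groups. Spinous nLRC had 0.467, 0.932 and 0.516% against 0.482, 0.674 and 0.515%, so both parts were above those of spinous LRC in every library. Granular cells had 0.350, 0.363 and 0.406% against 0.330, 0.336 and 0.327%. Back bulge had 0.408, 0.970 and 0.672% against 0.316, 0.390 and 0.410%, with the mitochondrial share highest in library 2.

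Outside back skin the nuclear shares overlapped with those of back skin while most mitochondrial shares were higher. Tail basal LRC had mitochondrial shares of 1.15, 0.957 and 0.954% beside nuclear shares of 0.376, 0.327 and 0.305%. Tail basal nLRC had 1.36, 0.922 and 1.26% beside 0.461, 0.368 and 0.417%, and tail bulge 0.964, 0.900 and 0.543% beside 0.321, 0.309 and 0.180%. The lowest value of each part among the tail libraries was that of bulge library 3. Palate had 1.56 and 1.35% in LRC and 1.69 and 1.21% in nLRC, beside nuclear shares of 0.421 to 0.516%. Tongue had 1.14 and 0.894% in LRC and 1.06 and 1.19% in nLRC, beside 0.389 to 0.452%.

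**Figure D1:**
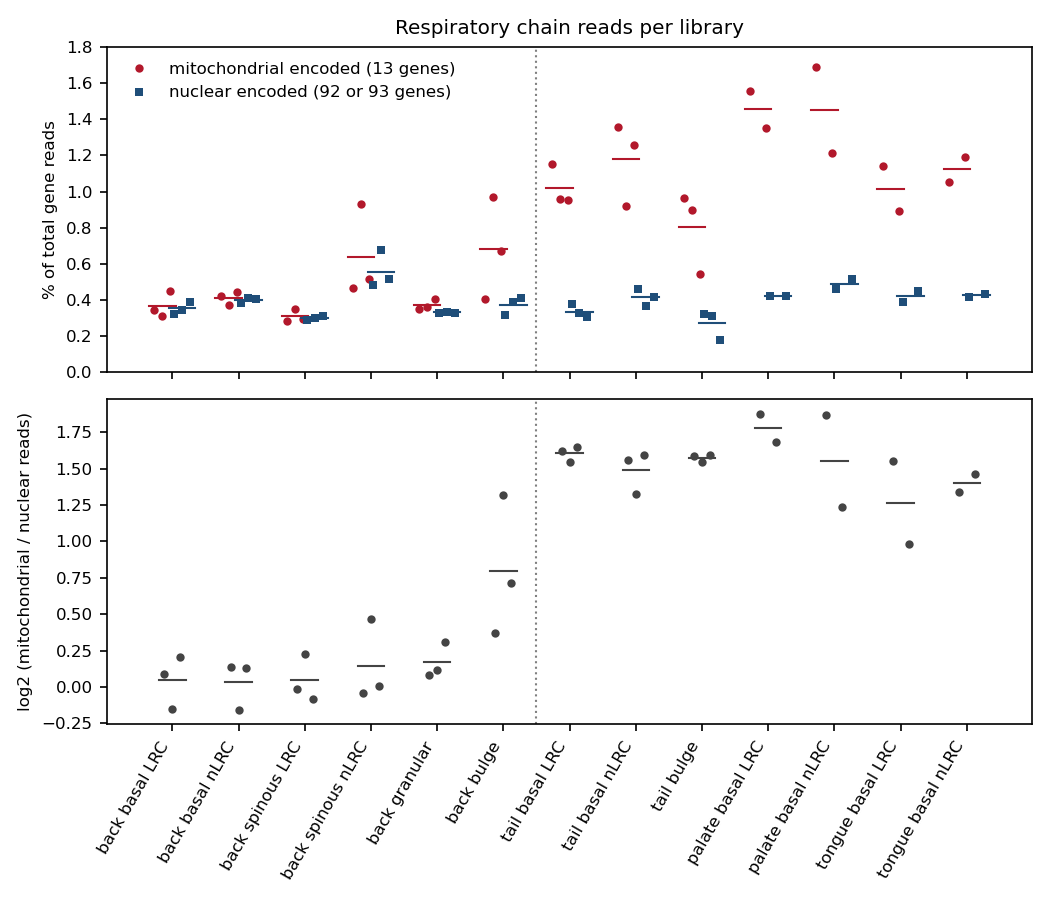
Upper panel: percent of total gene reads taken by the 13 mitochondrial (red) and the nuclear (blue) respiratory chain genes in each of the 35 libraries, by group, with a bar at the group mean. Lower panel: log2 of the ratio of mitochondrial to nuclear reads. The dotted line separates the back skin tables from the differently processed others, where the red points lie at 0.543 to 1.69% and the blue points stay between 0.180 and 0.516%.

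The ratio of mitochondrial to nuclear member reads was 0.897 to 2.49 in the back skin libraries (0.897 to 1.64 without bulge library 2), 2.50 to 3.13 in tail, 2.35 to 3.67 in palate and 1.98 to 2.93 in tongue. The ratio needs no scaling between libraries, and its log2 was compared in 12 contrasts with exact two-sided permutation tests, adjusted over the 12. No difference between label classes passed: LRC minus nLRC was 0.01 in back basal, -0.10 in back spinous, 0.11 in tail, 0.23 in palate and -0.13 in tongue, with adjusted exact permutation p of 0.9 to 1. With 3 libraries against 3 the smallest possible p is 0.1, and with 2 against 2 it is 0.333, so these designs could not pass the threshold. Leaving out 1 library turned the sign in back basal, back spinous, palate and tongue: the values ran from -0.085 to 0.11, -0.19 to 0.064, -0.089 to 0.55 and -0.42 to 0.15. Tongue minus palate was -0.33. Back bulge lay above back basal by 0.76 (bulge ratios 1.29, 2.49 and 1.64, exact permutation p = 0.0238, the smallest possible, adjusted p = 0.143) and by 0.50 without bulge library 2. Tail basal lay above back basal by 1.51 (exact permutation p = 0.00216, adjusted p = 0.026), and here tissue and processing of the tables cannot be told apart.

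Per length of transcript, on the deposited TPM scale, the summed mitochondrial part of complexes III and IV led the nuclear part in back skin. In complexes I and V the nuclear sum was the higher, while the mitochondrial sums rest on only 7 and 2 genes. Per gene, the median mitochondrial member stood at 280 and 1147 TPM in these complexes, beside 68.5 and 102 TPM for the nuclear one. The median summed TPM over the 18 libraries was 2274 for the mitochondrial and 2772 for the nuclear genes of complex I and 2293 against 2346 in complex V. It was 1485 against 989 in complex III and 14597 against 3167 in complex IV, and complex II summed to 188. In the other tables the mitochondrial sum was the higher in all 4 shared complexes: 6179 against 1652 TPM in complex I, 2176 against 625 in III, 8058 against 972 in IV and 11260 against 1238 in V. The ratio of the summed TPM of the 2 parts was 1.62 to 4.38 in back skin and 3.88 to 7.51 in the other tables. There mt-Rnr1 and mt-Rnr2, the mitochondrial ribosomal RNAs, alone held 120821 to 211866 TPM, while the back skin tables list them at 0 TPM although they count reads for them, so TPM levels are not compared across the sets.

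Among single genes of back skin, the complex IV core subunits mt-Co3, mt-Co1 and mt-Co2 had the highest median TPM, at 5506, 4937 and 3938. The highest nuclear member was Atp5b, the catalytic beta subunit of ATP synthase, with a median of 498 TPM (227 to 1070). Cox8a, the common form of a small complex IV subunit, followed at 426 TPM (131 to 1036), and Ndufb11 led nuclear complex I at 251 TPM, Uqcr10 complex III at 203 TPM and Sdhb complex II at 59.5 TPM. In the other tables mt-Atp6 led at 9122 TPM before mt-Co1 at 4335 TPM, and the leading nuclear members were Atp5a1 at 234, Atp5b at 210, Ndufa6 at 185, Uqcrb at 142, Cox8a at 138 and Sdha at 42.6 TPM. The isoforms of complex IV with a limited tissue range were near the floor except for Ndufa4l2. Cox6a2, the striated muscle form of subunit 6a, had 0 reads in all 18 back skin and all 17 other libraries, and Cox8c had 0 reads in 18 and in 15 of them. Median reads per library in back skin and elsewhere were 7 and 2 for Cox4i2, 5 and 4 for Cox7a1, 2 and 1 for Cox8b and 6 and 6 for Cox6b2, and Cox7b2 had 0 reads in 13 and 10 libraries. A gene at 0 reads was not detectable at this depth, which does not show absence.

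The 13 mitochondrial genes did not stand in the same proportions in the 2 sets of tables. Median shares of the mitochondrial member reads in back skin and in the other libraries were 39.1 and 27.9% for mt-Co1, 20.7 and 5.35% for mt-Co3, 12.4 and 5.53% for mt-Co2 and 8.56 and 10.6% for mt-Cytb. For mt-Atp6 they were 7.55 and 23.2%. The largest relative gaps were in mt-Atp8 (0.02 to 0.08% of mitochondrial reads in back skin against 1.29 to 1.98%) and mt-Nd6 (0.05 to 0.31% against 1.24 to 2.42%), whose ranges lay far apart. In mm10 mt-Nd6 lies on the minus strand at M:13552-14070 and shares 14 bases with mt-Nd5 (M:11742-13565) on the plus strand, and mt-Atp8 (M:7766-7969) shares 43 of its bases with mt-Atp6 (M:7927-8607). mt-Nd4l shares 7 bases with mt-Nd4, and mt-Atp6 shares 1 with mt-Co3. The sources used here do not say how reads in shared bases or on the opposite strand were counted, and the levels of these genes are uncertain. The ratio of mt-Rnr2 to mt-Rnr1 reads, the large and small ribosomal RNAs of the same genome, was 5.87 to 9.18 in back skin and 1.02 to 1.41 elsewhere.

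**Figure D2:**
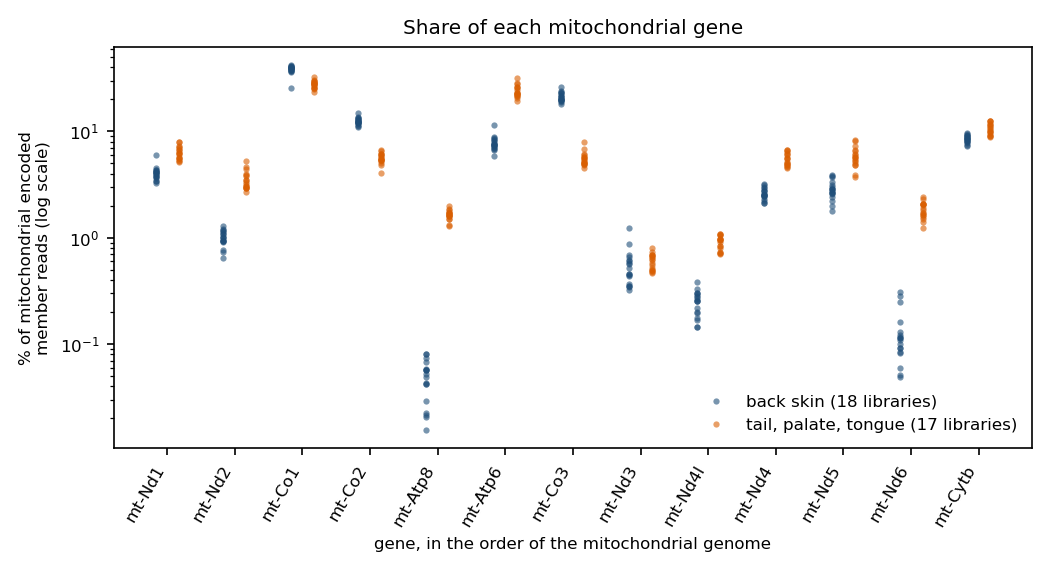
Share of each mitochondrial gene among the reads of all 13, in genome order, on a log axis, for the 18 back skin libraries and the 17 tail, palate and tongue libraries (1 point per library). The sets do not overlap for 8 genes: mt-Atp8, mt-Nd6, mt-Atp6, mt-Nd2, mt-Nd4 and mt-Nd4l, which are lower in back skin, and mt-Co3 (medians of 20.7 and 5.35%) and mt-Co2, which are higher there.

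The nuclear members are scattered over the chromosomes, and their promoters were read for the motifs of the factors named above. RefSeq (GRCm38.p6) gave a promoter for 77 of the 93 nuclear members, from 250 bases before to 50 after the first listed start, and both strands were searched. The centre of the NRF1 motif, CGCATGCG, which reads the same on both strands, stood in 10 of 77 member promoters (13%) and in 517 of all 27025 promoters (1.91%). The YY1 motif AAGATGGCG stood in 8 of 77 (10.4%) against 404 (1.49%) of all. The ETS motif CCGGAAGT stood in 5 of 77 (6.49%) against 1081 (4.00%). No matches of different motifs overlapped in a member promoter. A match is a description of letters and not a measured site. The 250 bases before the start are shown for 3 members with the NRF1 letters and 1 with the ETS letters, in capitals, because Cox6a1, Atp5g2 and Ndufa11 passed the tests described below for back spinous, tail and bulge cells and Atp5h carries the ETS letters near its start. They are Cox6a1 (chr5:115348959-115349208, minus strand), Atp5g2 (chr15:102671048-102671297, minus strand), Ndufa11 (chr17:56717512-56717761, plus strand) and Atp5h (chr11:115419920-115420169, minus strand, where the capitals are the ETS motif on the opposite strand).
Cox6a1: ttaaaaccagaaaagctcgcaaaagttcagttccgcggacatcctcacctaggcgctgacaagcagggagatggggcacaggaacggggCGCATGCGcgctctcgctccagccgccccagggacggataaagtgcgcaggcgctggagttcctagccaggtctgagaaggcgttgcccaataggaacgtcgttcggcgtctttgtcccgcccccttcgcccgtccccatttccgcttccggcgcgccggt
Atp5g2: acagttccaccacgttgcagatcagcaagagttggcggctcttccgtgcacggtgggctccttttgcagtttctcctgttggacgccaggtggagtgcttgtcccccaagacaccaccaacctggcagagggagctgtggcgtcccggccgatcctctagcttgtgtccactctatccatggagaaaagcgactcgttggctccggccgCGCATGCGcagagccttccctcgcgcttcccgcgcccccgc
Ndufa11: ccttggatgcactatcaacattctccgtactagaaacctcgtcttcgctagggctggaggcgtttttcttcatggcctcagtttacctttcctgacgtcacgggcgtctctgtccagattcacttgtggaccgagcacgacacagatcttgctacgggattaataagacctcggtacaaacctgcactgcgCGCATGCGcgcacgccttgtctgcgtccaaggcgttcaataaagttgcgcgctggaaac
Atp5h: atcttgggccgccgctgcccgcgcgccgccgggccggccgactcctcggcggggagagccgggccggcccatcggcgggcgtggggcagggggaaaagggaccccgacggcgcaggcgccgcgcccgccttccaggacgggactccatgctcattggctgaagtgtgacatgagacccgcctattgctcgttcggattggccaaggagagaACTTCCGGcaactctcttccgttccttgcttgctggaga
The NRF1 letters begin 161 bases before the start site in Cox6a1, 41 before it in Atp5g2 and 59 before it in Ndufa11, and the ETS letters 39 before it in Atp5h. Among the 19 matched promoters of nuclear members that fell in back spinous LRC (below), 2 held the NRF1, 2 the ETS and 1 the YY1 motif. Among the other 55 tested members with a promoter the numbers were 8, 3 and 6. Ndufa4l2 has no entry in the promoter table.

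In back skin basal cells no respiratory chain gene passed the test between slow-cycling and fast-cycling cells, while most had a negative difference. None of the 101 members tested passed edgeR's quasi-likelihood test at a Benjamini-Hochberg adjusted p of 0.05, where 0.235% of all genes did (0.0121% higher, 0.223% lower). At an unadjusted p of 0.05, 1 member passed, Sdhc, with a log2 difference of -0.37, and the share of all genes there is not given. DESeq2, limma on log2 TPM and the fit with a replicate block also called 0 members at the adjusted threshold. The median log2 difference, LRC minus nLRC, was -0.22 for the 88 nuclear and -0.12 for the 13 mitochondrial genes, against -0.01 for all genes tested. By sign, 89 of 101 members had a negative difference. Same-numbered libraries deviated together here, and the nuclear share of reads given above was lower in LRC in all 3 number pairs (exact permutation p = 0.2 between the groups, adjusted p = 0.48). All 8 nuclear complex III genes and all 4 of complex II had a negative difference, with medians of -0.28 and -0.32, none of them past the test.

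In the libraries labelled back spinous, some of the respiratory chain genes, from all 5 complexes, were lower in LRC than in nLRC. The 4 spinous markers summed to 10495 to 15717 CPM in LRC and 2063 to 3872 CPM in nLRC. Label class and cell make-up cannot be told apart here. Of 101 members, 25 fell and 1 rose (quasi-likelihood test of edgeR, Benjamini-Hochberg adjusted p under 0.05). Over all genes 15.5% were called, 8.63% lower and 6.88% higher. The median log2 difference was -0.76 for nuclear and -0.98 for mitochondrial members and -0.01 for all genes, and 96 of 101 members had a negative sign. All 4 subunits of complex II fell, as did 9 of 36 complex I subunits, 2 of 8 nuclear complex III genes, 4 of 16 tested nuclear complex IV genes, 5 of 16 Atp5 genes and 1 of 13 mitochondrial genes. None of the 8 complex I assembly factors passed, although all 8 had a negative sign (median -0.55). The summed shares of total reads given above did not overlap for either part, with adjusted exact permutation p of 0.24 for the mitochondrial and 0.4 for the nuclear share.

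Complex II, which links the tricarboxylic acid cycle to the chain, was the complex with all genes called. Sdhd, a membrane anchor, had 10.5, 7.11 and 13.5 CPM in spinous LRC and 30.7, 33.1 and 26.9 CPM in spinous nLRC, without overlap, and fell by 1.54 ± 0.25 (log2, SE, adjusted p = 0.000663 in edgeR). The other anchor, Sdhc, had 23.6, 21.0 and 29.9 against 33.7, 43.5 and 43.8 CPM (-0.70 ± 0.17). The flavoprotein Sdha, which oxidises succinate, had 40.2, 44.9 and 48.5 against 57.8, 75.3 and 75.0 CPM (-0.64 ± 0.17). The iron-sulfur subunit Sdhb had 28.5, 24.0 and 29.6 against 46.3, 63.5 and 51.9 CPM (-0.98 ± 0.26). In each of the 4 genes every LRC library lay below every nLRC library. The genes had been called first, and how many of all genes separate in this way was not counted. Without nLRC library 2 the calls of Sdha (edgeR adjusted p = 0.0701) and Sdhb (0.0720) were lost and those of Sdhd and Sdhc held, and limma on log2 TPM called Sdhd and Sdhb but not Sdhc (adjusted p = 0.274) or Sdha (0.475).

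**Figure D3:**
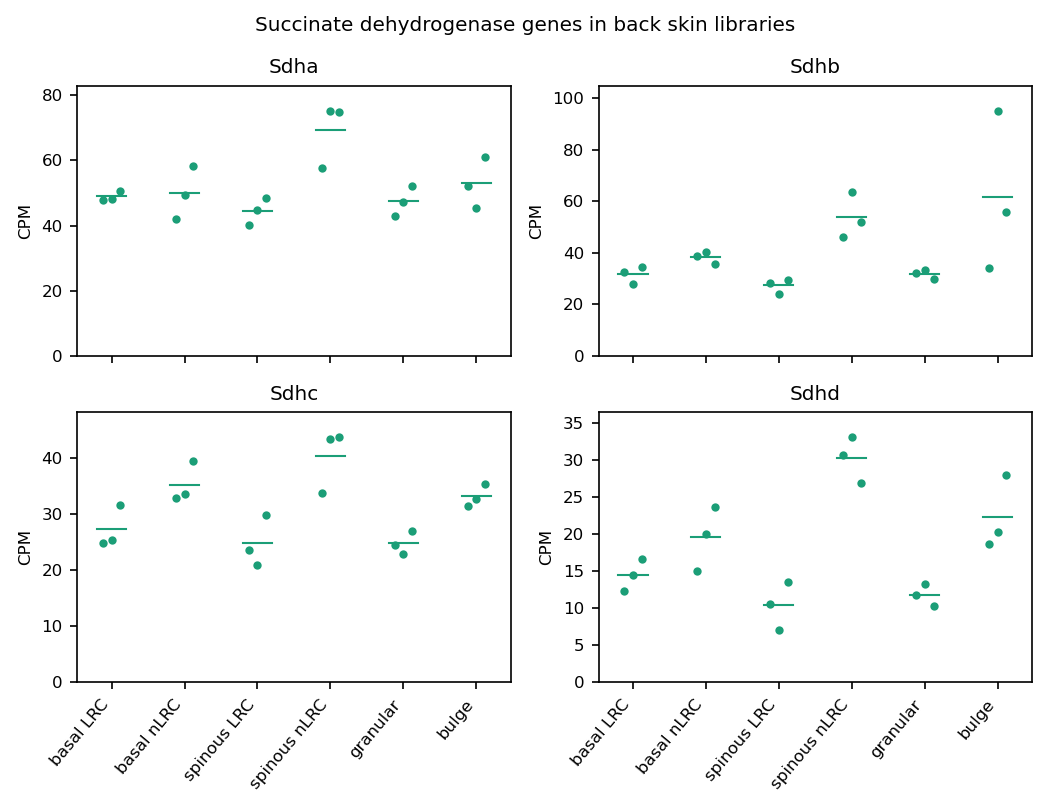
CPM of the 4 complex II genes Sdha, Sdhb, Sdhc and Sdhd in each of the 18 back skin libraries, by group. The spinous nLRC libraries lie above the spinous LRC libraries for each gene, for Sdhd at 26.9 to 33.1 against 7.11 to 13.5 CPM.

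Of the other complexes, the 5 Atp5 genes that fell included those of the catalytic head and the ring of ATP synthase. Atp5b had 284, 316 and 340 CPM in LRC and 615, 947 and 781 CPM in nLRC and fell by 1.32 ± 0.26 (edgeR adjusted p = 0.00287). Atp5a1, the alpha subunit beside it, fell by 1.09 ± 0.27, and Atp5g3, which codes for the c subunit of the ring, by 1.37 ± 0.32. Cox8a had 37.6, 37.0 and 34.8 against 76.2, 119 and 84.5 CPM and fell by 1.35 ± 0.23 (adjusted p = 0.000754), without overlap. Among complex I genes, Ndufa10 fell by 0.87 ± 0.21 and Ndufv1, the flavoprotein that accepts electrons from NADH, by 1.19 ± 0.30. Ndufs3, Ndufs7 and Ndufs8, which belong with Ndufv1 to the core of the complex, fell by 0.71, 1.04 and 1.32. Uqcrc2, a core protein of complex III, fell by 0.99 ± 0.22.

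The mitochondrial genes had differences of the same sign and were more scattered in nLRC. Catalytic mt-Co1 had 1042, 1339 and 1151 CPM in LRC and 1698, 3383 and 2214 CPM in nLRC, without overlap and short of the test. Among them mt-Nd5 alone passed, with 78.3, 99.4 and 96.9 against 164, 328 and 160 CPM and a log2 difference of -1.25 ± 0.41 (edgeR adjusted p = 0.0499). The value of 328 is from nLRC library 2, which also had the highest mt-Co1. Without that library 8 members fell and none rose, 7.52% of all genes were called, the medians were -0.65 for nuclear and -0.68 for mitochondrial genes, and mt-Nd5 had an adjusted p of 0.263. Sdhd, Cox8a, Atp5b, Uqcrc2, Atp5g3, Sdhc and Atp5a1 were among those 8. Leaving out spinous LRC library 1, 2 or 3 gave 10, 12 or 17 members. In the other direction, a fit without back bulge library 2 called 67 members, 66 of them lower, and 25.7% of all genes. A fit of the 2 spinous groups alone called 68 members. The share of all genes is not given for the fits with 10, 12, 17 and 68 calls, which show only that the number depends on the fit. Limma on log2 TPM called 12 of 100 members, all nuclear and lower, where 7.03% of all genes were called.

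Markers of some other cells moved with these 25 genes, while the spinous markers given above and the red blood cell markers were higher in LRC. The 5 red blood cell markers summed to 9.13 to 14.7 CPM in spinous LRC and 3.04 to 4.71 CPM in spinous nLRC. The muscle, fibroblast, endothelial, immune, granular and bulge lists overlapped between these groups. The 9 sebocyte markers summed to 529 to 674 CPM in spinous LRC and 3768 to 8178 CPM in spinous nLRC, with none of the 9 at 0 reads. Of the 7 adipocyte markers, 6 were at 0 reads in LRC (sum 0.0657 to 1.68 CPM) and 2, Ucp1 and Lep, in nLRC (sum 29.2 to 67.4 CPM), with Cidea shared between these lists. Melanocyte markers summed to 58.1 to 86.9 against 112 to 174 CPM and basal keratinocyte markers to 8159 to 11878 against 12191 to 16940 CPM. The median gene's intron share was 37.5, 33.2 and 32.8% in LRC and 31.8, 21.9 and 22.9% in nLRC. Their part in the result was not tested.

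Genes outside the chain that serve mitochondria were counted beside the 8.63% of all genes that were lower. Of 21 genes of the tricarboxylic acid cycle and pyruvate entry, 10 fell and 0 rose, among them Dlat (-1.24), Suclg1 (-0.95) and Idh3g (-1.52). Of 78 mitochondrial ribosomal protein genes 9 fell, led by Mrpl36 (-1.38), and all 78 had a negative sign, with a median of -0.53. Among 16 regulators of mitochondrial genes, Esrrg, a nuclear receptor, had 0 to 0.972 CPM in LRC and 10.3 to 47.4 CPM in nLRC, and Ppargc1a, its coactivator, 0.425 to 2.00 against 3.82 to 5.14 CPM. These 2 genes fell by 6.31 ± 1.23 and 2.02 ± 0.64, and the other 14 did not pass the test. Of 25 genes of mitochondrial transcription and RNA handling 2 fell (Hsd17b10 by 1.54 and Fastk by 0.67), of 10 for mitochondrial DNA maintenance 1 fell (Twnk by 0.61), and of 29 further chain genes 2 fell, Bcs1l (-0.89) and Cyc1 (-1.11), the cytochrome c1 of complex III. Apart from the tricarboxylic acid cycle list, these shares lie near that of all genes. Without spinous nLRC library 2 the calls of Dlat, Suclg1, Idh3g, Mrpl36, Esrrg and Hsd17b10 held, and those of Ppargc1a (edgeR adjusted p = 0.124), Cyc1 (0.0854), Bcs1l (0.113), Fastk (0.160) and Twnk (0.254) did not.

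Whether the label effect differed between the spinous and the basal layer of back skin was tested as an interaction. No member passed the edgeR test, where 0.392% of all genes did (0.103% positive, 0.29% negative). Unadjusted edgeR p was under 0.05 for 9 members, and the share of all genes at that threshold is not given. DESeq2 called 1, limma on log2 TPM 0, the fit of only the groups concerned 11 and the fit without back bulge library 2 called 4. The median interaction was -0.53 for nuclear and -0.90 for mitochondrial members. The call in the spinous layer beside none in the basal layer is therefore not a shown difference between the layers.

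**Figure D4:**
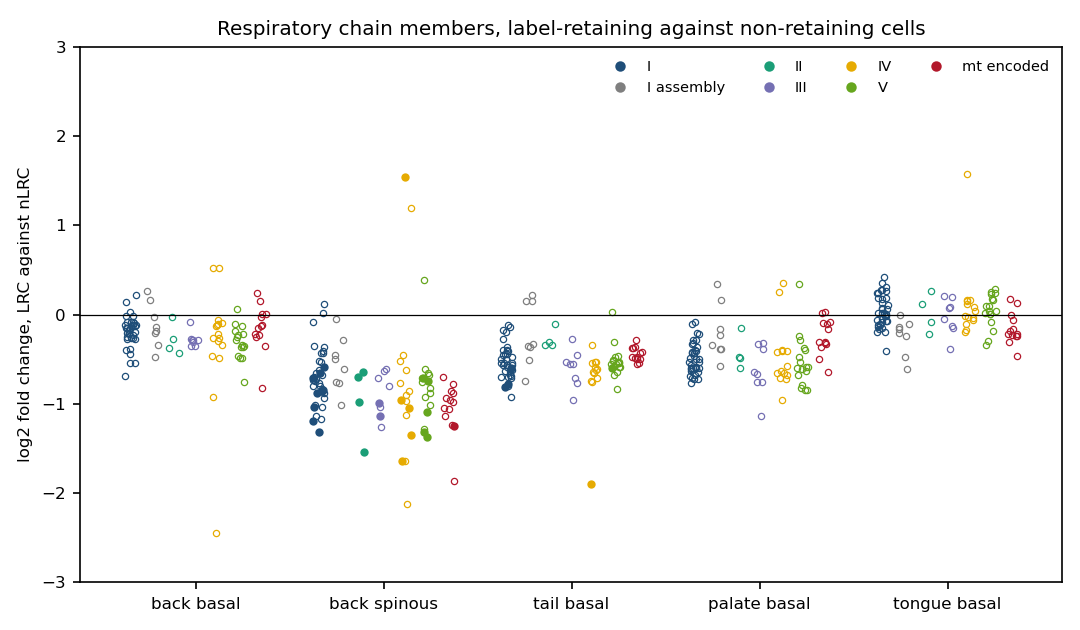
Log2 fold change, LRC against nLRC, of each tested member in the 5 tissue and layer contrasts, arranged by complex, with mitochondrial genes apart; filled points passed the edgeR test. Most points of back basal, back spinous, tail and palate lie below 0, and filled ones number 26 in back spinous and 5 in tail. Ndufa4l2 is the filled point far above 0 in back spinous, the highest point in tongue and the lowest in tail.

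In tail basal cells 5 of 99 members fell in LRC and 0 rose (edgeR, Benjamini-Hochberg), where 4.6% of all genes were called, 3.12% higher and 1.48% lower. They were Ndufa4l2, 3 complex I subunits and Atp5g2, a further c subunit gene whose promoter is shown above. Ndufb8 had 27.0, 20.4 and 24.3 CPM in LRC and 48.2, 37.7 and 36.9 in nLRC (-0.78 ± 0.17). Ndufa12 had 28.9, 31.9 and 33.8 against 66.3, 51.4 and 47.7 CPM (-0.81 ± 0.18). Atp5g2 had 20.5, 17.9 and 22.1 against 34.4, 29.5 and 27.9 CPM (-0.60 ± 0.14), and Ndufa7 fell by 0.60 ± 0.15. In each of the genes given by library, LRC and nLRC did not overlap. All of these had passed the test, and how many of all genes separate was not counted. The medians were -0.54 for nuclear and -0.47 for mitochondrial members against 0.02 for all genes, and all 36 complex I subunits and all 13 mitochondrial genes had a negative sign.

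The number called in tail depended on the fit. With the replicate number as a block, 34 nuclear members fell and 0 rose, where 13.7% of all genes were called. DESeq2 called 20 and a fit without a filter on low counts 44, each without the share of all genes beside it. Limma on log2 TPM called only Ndufa4l2, with medians of -0.15 for nuclear and -0.00 for mitochondrial members, and leaving out any of the 6 libraries left 1 or 2 calls. The intron share of the median gene was 18.1, 28.8 and 26.5% in LRC and 10.7, 15.6 and 22.0% in nLRC, and its part was not tested. The total reads include intron reads and TPM rests on exon reads. Marker lists moved with the label class in tail without overlap, with no marker at 0 reads. LRC and nLRC had 12675 to 13675 and 22035 to 31492 CPM of the 5 basal keratinocyte markers, and 3900.3 to 4957 and 2413 to 2735 CPM of the 4 spinous ones. For the 7 bulge markers the sums were 1165 to 2250 and 340.3 to 518 CPM, and for the 9 sebocyte markers 203 to 276 and 388 to 779 CPM. Their part in the result was not tested. Of the lists outside the chain, Pdha1 (-0.53), a subunit of pyruvate dehydrogenase, was the only gene of 20 in the tricarboxylic acid cycle list to pass.

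In palate and tongue, with 2 libraries a group, no member passed the edgeR test for the label class. In palate 0% of 14923 genes were called, and in tongue 0.0067%. At an unadjusted p under 0.05 there were 15 members in palate and 2, Ndufa4l2 and Ndufaf5, in tongue. The share of all genes at that threshold is not given, so these counts are not a result about the members. DESeq2 and limma on log2 TPM called 0 in palate, and 1 and 0 in tongue. The palate medians, -0.53 for nuclear and -0.30 for mitochondrial members, became -0.07 and -0.23 without nLRC library 2, and without nLRC library 1 there were 42 calls, all lower, in a fit that calls 9.73% of genes. In either fit palate nLRC is 1 library, assumed to vary like the other groups, and in the second it is the library that stood apart. In tongue the medians were 0.01 and -0.21, so the 46 of 87 nuclear members with a positive sign were close to an even split.

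Ndufa4l2 (chr10:127514967-127517154, plus strand), a paralog of Ndufa4 that is known to be induced by hypoxia-inducible factor and to lower respiration, varied widely between groups. In back skin its median was 387 TPM, beside the most abundant nuclear subunits, and its lowest value 7.6 TPM. In CPM it had 77.7, 193 and 213 in back basal LRC and 60.3, 156 and 120 in basal nLRC, groups that overlap (0.52 ± 0.44, edgeR adjusted p = 1). Spinous LRC had 71.6, 125 and 183 CPM and spinous nLRC 24.2, 45.9 and 60.6, and it rose in LRC by 1.54 ± 0.45 (adjusted p = 0.0274), the only member to rise there. Granular cells had 72.9 ± 25.3 CPM (SD, n = 3). Back bulge had 6.60, 6.13 and 6.74 CPM, the lowest of all back skin libraries, and the difference from the basal layer was -4.36 ± 0.49 (edgeR adjusted p = 6.3e-06) and -4.37 without bulge library 2.

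In tail the label difference of Ndufa4l2 had the opposite sign. Tail LRC had 7.92, 15.3 and 10.8 CPM and nLRC 45.5, 50.9 and 30.2, a difference of -1.90 ± 0.30 (edgeR adjusted p = 0.00563). Tail bulge had 3.84, 6.65 and 4.13 CPM and lay below tail basal by 2.16 ± 0.29 on the log2 scale (adjusted p = 0.000444). Tongue LRC had 65.8 and 93.4 CPM against 26.7 ± 1.88 (SD, n = 2) in nLRC, a difference of 1.57 ± 0.32 with an unadjusted edgeR p of 0.000793 that did not pass after adjustment (0.228). Palate LRC had 17.5 and 34.0 CPM against 20.1 ± 4.14 (SD, n = 2) in nLRC. By group mean the back skin order was basal LRC, spinous LRC, basal nLRC, granular, spinous nLRC and bulge, and neighbours before bulge overlapped. The spinous call was lost in limma on log2 TPM (1.68, adjusted p = 0.0703) and without spinous nLRC library 2 (1.55, adjusted p = 0.0987), and the interaction with the basal layer was 1.02 ± 0.62 (adjusted p = 0.582). The tail call was kept in limma (-1.44, adjusted p = 0.0224).

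**Figure D5:**
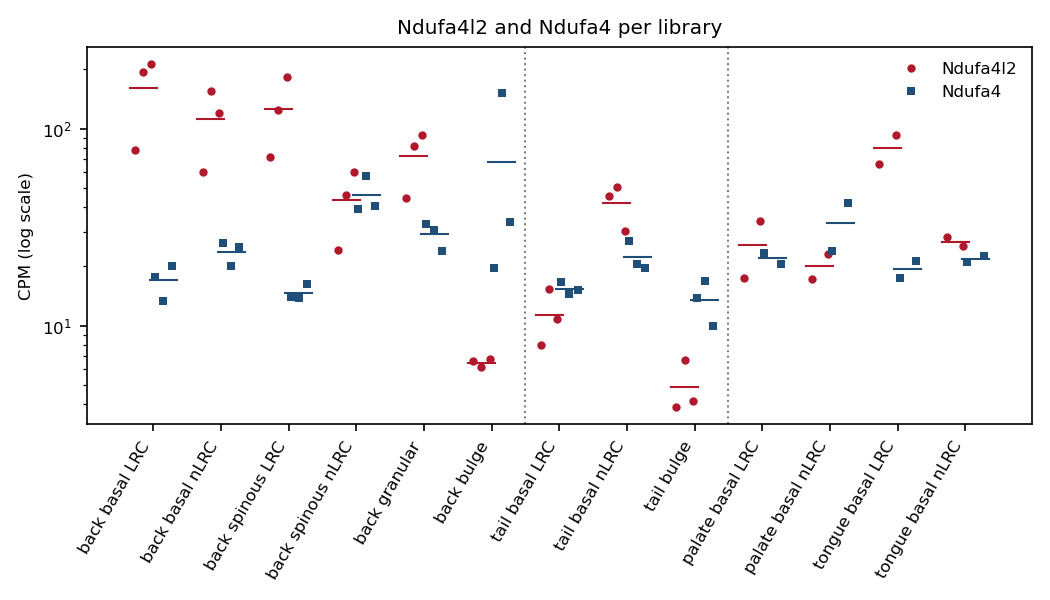
CPM on a log axis of Ndufa4l2 and of Ndufa4 in each of the 35 libraries, by group; dotted lines separate the back, tail and oral fits, which were scaled apart. Ndufa4l2 runs from 3.84 CPM in tail bulge to 213 CPM in back basal LRC and is low in both bulge groups, while Ndufa4 is highest in bulge library 2 of back skin, at 151 CPM.

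Ndufa4 itself (chr6:11900292-11907497, minus strand) had 14.0, 13.9 and 16.2 CPM in back spinous LRC and 39.2, 57.7 and 40.5 in spinous nLRC. It fell by 1.64 ± 0.50 (edgeR adjusted p = 0.0338) where its paralog rose. In tail its difference was -0.54 (adjusted p = 0.170), the same sign as that of Ndufa4l2. In back bulge it had 19.6, 151 and 33.8 CPM against 13.3 to 26.2 in basal cells, a rise of 1.75 ± 0.40 that became 0.38 (adjusted p = 0.229) without bulge library 2.

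Between the layers of back skin no member passed the edgeR test. Spinous against basal cells, each the mean of LRC and nLRC, gave 0 of 101 members where edgeR called 9.07% of all genes (4.9% higher, 4.18% lower). Granular against spinous cells gave 0 of 101 where it called 4.01% (2.47% higher, 1.54% lower). At an unadjusted p under 0.05 there were 6 and 4 members, without the share of all genes at that threshold beside them. DESeq2 called 0 and 1, limma on log2 TPM 0 in both, and the replicate block 1 and 0. With only the groups compared in the fit there were 2 calls in each. The medians were 0.14 for nuclear and 0.16 for mitochondrial members from basal to spinous, and -0.25 and -0.24 from spinous to granular. By sign, 83 of 101 members were positive in the former and 95 of 101 negative in the latter. Both comparisons use the spinous libraries, in which LRC and nLRC differed as described. Of the regulators, Esrra rose by 0.35 and Hif1a fell by 0.53 from basal to spinous cells.

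In back skin bulge cells 22 of 101 members passed the edgeR test against basal cells, 14 nuclear genes higher, 7 mitochondrial genes higher and Ndufa4l2 lower, where 26.3% of all genes were called (15.7% higher, 10.6% lower). Most of the rises came from bulge library 2. Ndufa11, a membrane arm subunit of complex I whose promoter is shown above, had 36.1, 160 and 51.4 CPM against 21.4 to 27.4 in basal cells (1.72 ± 0.33), so each bulge library lay above all basal ones. Ndufc2 rose by 1.70 ± 0.35. Among mitochondrial genes, mt-Co3 had 724, 5107 and 1469 CPM against 609 to 930, mt-Nd3 20.5, 240 and 21.3 CPM and mt-Co1 1399, 4961 and 2548 CPM, with rises of 1.65 ± 0.41, 2.24 ± 0.57 and 1.02 ± 0.31. The median was 0.37 for nuclear and 1.22 for mitochondrial members, and 0.06 for all genes.

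Without bulge library 1 or 3 the number of members called was 58 or 35, in fits whose share of all genes called is not given. Without bulge library 2 only 6 members passed, 25.3% of all genes were called, and the medians were -0.11 for nuclear and 0.06 for mitochondrial members. Ndufa11 (0.78) and Ndufc2 (0.97) rose, Ndufa4l2 (-4.37), Uqcrc1 (-0.65), Atp5d (-0.52) and Ndufv3 (-0.67) fell, and no mitochondrial gene passed. Limma on log2 TPM with all libraries called Ndufc2, Ndufa11 and Ndufa4l2, with medians of -0.09 and 0.49. On the deposited TPM scale library 2 did not stand out for mt-Co3 (9100 TPM beside 6650 and 9860) or Ndufa11 (80.6 beside 85.1 and 97.2), was high for mt-Nd3 (958 beside 416 and 323) and was low for Atp5b (227 beside 507 and 513) and Cox8a (131 beside 564 and 643). Its scaling factor of 0.50 raises all of its CPM. The 6 endothelial markers summed to 40.1 to 314 CPM in back bulge and 1.13 to 2.08 CPM in basal cells, the 8 melanocyte markers to 84.9 to 666 against 88.0 to 114 CPM, the 7 adipocyte markers to 22.7 to 71.5 against 0.0604 to 4.24 CPM and the 6 fibroblast markers to 4.46 to 31.4 against 0 to 1.40 CPM. Lum was at 0 reads in all of these groups, and Ucp1 and Adipoq were at 0 in bulge. Their part in the result was not tested.

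In tail bulge cells 7 of 99 members fell against basal cells and 1 rose, where edgeR called 24.6% of all genes, 10.4% lower and 14.2% higher. Ndufa11 rose by 0.73 ± 0.23, with 20.3 to 37.2 CPM against 12.9 to 23.8, ranges that overlap. Cox5a, a nuclear subunit of complex IV, had 8.43, 8.61 and 8.25 CPM against 8.83 to 15.5 (-0.58 ± 0.14), without overlap. Besides Ndufa4l2, Uqcrfs1, the Rieske iron-sulfur protein of complex III, fell by 0.57, Ndufa10 by 0.45, Ndufb8 by 0.51, Atp5g1 by 0.52 and Ndufb11 by 0.56. The medians were -0.23 for nuclear and -0.21 for mitochondrial members. Without bulge library 1, 2 or 3 the number called was 2, 4 or 2, and without tail LRC library 1 or 3 it was 4 or 3. Limma on log2 TPM called 33 members, 32 of them lower, where it called 23.2% of all genes, and the fit with a replicate block called 18, 15 of them lower, beside 34.1% of all genes. The spinous markers were lower in tail bulge (242 to 289 CPM) than in tail basal cells (2413 to 4957 CPM). Sebocyte (184 to 290 against 203 to 779 CPM), muscle, immune and red blood cell lists overlapped. Markers of some other cells were higher in tail bulge than in tail basal cells without overlap. The 6 endothelial markers summed to 77.1 to 132 against 14.1 to 25.1 CPM (Cldn5 at 0 in basal cells), the 8 melanocyte markers to 104 to 232 against 32.8 to 50.3, the 7 adipocyte markers to 15.2 to 35.5 against 0.122 to 4.60 and the 6 fibroblast markers to 13.6 to 27.5 against 0.670 to 7.0 CPM. Their part in the result was not tested. In both bulge comparisons Pdk2, a kinase that shuts down pyruvate dehydrogenase, rose (2.07 in back and 1.31 in tail skin), and Cs, citrate synthase, fell (-0.59 and -0.50). The fall of Cs in tail bulge was lost without library 3 (edgeR adjusted p = 0.0616). Hif1a, which encodes a regulator of the hypoxia response, fell by 0.56 in back bulge and rose by 0.78 in tail bulge. The call of Hif1a in back bulge was lost without library 2 (edgeR adjusted p = 0.0561). Ndufa4l2 fell in both, and a link between these genes was not tested.

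Oral basal cells (palate and tongue) had more of several members than tail basal cells. Of 99 members, 20 nuclear and 4 mitochondrial genes rose and Ndufaf2, an assembly factor, fell (-0.75), where edgeR called 32.9% of all genes, 14.9% higher and 18% lower. Ndufs1, the largest core subunit of complex I, had 46.2 to 62.5 CPM in tail and 64.2 to 82.6 in oral libraries, without overlap (0.42 ± 0.08, edgeR adjusted p = 0.00038). Uqcrh, the hinge protein of complex III, rose by 0.92 ± 0.18 and Atp5d, the delta subunit of ATP synthase, by 0.75 ± 0.14. The mitochondrial genes that rose were mt-Nd2 (0.63), mt-Cytb (0.50), mt-Nd4 (0.42) and mt-Nd4l (0.42). The nuclear median of 0.26 and the mitochondrial one of 0.18, beside -0.06 for all genes, changed sign in limma on log2 TPM, to -0.03 and -0.08. That test called 7 nuclear members higher, 6 lower and 1 mitochondrial gene lower. In edgeR without palate nLRC library 2, which leaves that group with 1 library, the medians were 0.16 for nuclear and 0.19 for mitochondrial members. Without tail LRC library 2, tail nLRC library 2 or 3 or tongue nLRC library 1, the edgeR count was 16, 15, 14 or 15.

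Outside the chain, Ppargc1a, the coactivator of mitochondrial gene expression, had 4.11 to 9.51 CPM in oral and 0 to 1.86 CPM in tail basal cells, a rise of 5.10 ± 0.56. Of 21 tricarboxylic acid cycle genes 7 rose and 2 fell, and of 80 mitochondrial ribosomal protein genes 12 rose and 1 fell. Both counts stand beside 14.9% of all genes higher and 18% lower. The 6 fibroblast markers summed to 36.0 to 178 CPM in oral and 0.670 to 7.0 CPM in tail basal cells, each scaled within its own fit. Lum was at 0 reads in all 4 oral groups and in tail nLRC. Col3a1 was at 0 in palate nLRC and both tongue groups, Col1a2 in palate and tongue LRC, and Pdgfra in palate nLRC and tongue LRC. The oral sums thus rest on part of the list. The 4 spinous keratinocyte markers summed to 53.3 to 156 against 2413 to 4957 CPM, with none at 0. Their part in the result was not tested. Skin and oral tissues also differ in the length of doxycycline treatment, which cannot be told apart from tissue here.

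Between the oral tissues more mitochondrial than nuclear genes were called. Of 99 members 11 fell in tongue against palate and 0 rose (edgeR), 9 of them mitochondrial, with Ndufb6 (-0.69) and Ndufa5 (-0.75), where 10.8% of all genes were called, 5.47% higher and 5.36% lower. The complex I gene mt-Nd6 had 158, 148, 189 and 192 CPM in tongue and 323, 275, 391 and 350 in palate (-0.97 ± 0.14, edgeR adjusted p = 0.00025). Its neighbour mt-Nd5 on the other strand had 490, 392, 604 and 622 against 968, 852, 1239 and 1039 CPM (-0.97 ± 0.16). For both genes every tongue library lay below every palate library. Both had passed the test, and how many of all genes separate between the tissues was not counted. The medians were -0.67 for mitochondrial and -0.31 for nuclear members and -0.06 for all genes. The log2 ratio of mitochondrial to nuclear reads, which compares the parts directly, differed by -0.33 and did not pass (exact permutation p = 0.143, adjusted p = 0.571).

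Without palate nLRC library 2 only 4 mitochondrial genes passed, with medians of -0.65 and -0.05, 33 members passed without palate nLRC library 1, and 2 to 7 without each of the other 6. Limma on log2 TPM called none of these genes and only Ndufa4l2, higher in tongue by 1.35, with medians of -0.33 for mitochondrial and -0.01 for nuclear members. The 6 fibroblast markers summed to 39.0 to 62.7 CPM in palate LRC, 97.2 to 126 in palate nLRC, 36.0 to 76.4 in tongue LRC and 118 to 178 in tongue nLRC, so the tissues overlapped. In each of these groups 2 to 4 of the 6 were at 0 reads. The 5 basal keratinocyte markers summed to 18379 to 32702 CPM in palate and 10323 to 14228 in tongue, with none at 0 reads. The 7 bulge markers summed to 427 to 806 against 1613 to 3176 CPM, with Lhx2 at 0 in tongue. Neither of these lists overlapped between the tissues, and their part in the result was not tested. Hif1a fell in tongue by 0.92.

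Tail and back basal cells come from the differently processed sets, so that tissue and processing cannot be told apart, and their values are given only as a measure of that gap. Of 99 members, 46 nuclear and 12 mitochondrial genes were higher in tail and 13 nuclear genes lower, where edgeR called 58.3% of all genes, 31% higher and 27.2% lower. mt-Atp8 differed by 6.83 ± 0.27 (213 against 1.9 CPM on average) and mt-Nd6 by 6.40 ± 0.15 (263 against 3.2 CPM), while mt-Co3 differed by -0.06. Among nuclear genes Atp5k (3.61) and Ndufa5 (3.10) differed most. The nuclear median of 0.42 turned to -0.87 in limma on log2 TPM, with 12 members higher and 64 lower, and the mitochondrial median fell from 2.79 to 1.29.

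Across the 18 back skin libraries the nuclear members whose log2 CPM followed the mean of the mitochondrial genes most closely were small subunits, Cox7b and Cox6b1 (Pearson r of 0.97 each), Cox7c and Uqcrb (0.95 each). These libraries share their scaling, and bulge library 2 is the highest for most of these genes. Without it the values were 0.93, 0.91, 0.86 and 0.86, and Ndufb9 (0.91), Ndufb8 (0.90) and others passed Cox7c and Uqcrb. At the other end stood Atp5s (-0.79), which is not an enzyme subunit, Cox4i2 (-0.70), near its floor, and Ndufa4l2 (-0.47), and without bulge library 2 these were -0.21, -0.47 and -0.17. The values describe these libraries and carry no test.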

How the data were processed

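For each library the authors' deposited table lists, gene by gene, read counts, TPM and RPKM. Per the file headers the counts are total gene reads, and the values show that they hold exon and intron reads while the deposited TPM and RPKM rest on exon reads only. RPKM from the authors' tables served only for intron shares. The genome build is mm10, per the submitters' processing notes. The sources used here name no aligner, counting program or annotation and do not say whether counting used strand. Positions came from an annotation of mm10, which matched 104 of the 106 members, and promoters from RefSeq (GRCm38.p6).

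Group means were compared on the deposited counts by the quasi-likelihood test of edgeR 4.0.16 under R 4.3.3, scaled by TMM. The filter was filterByExpr with a minimum count of 10 and a minimum total of 15, and p was adjusted by Benjamini-Hochberg over all genes tested, with a threshold of 0.05. The fits held the 18 back skin, 9 tail, 8 oral or 20 basal layer libraries, on the 47436 names shared by all tables in the last. Members were read from those fits, with an SE equal to the log2 fold change divided by the root of the F statistic. Within a fit, CPM carry its TMM factors. Several comparisons share libraries (the spinous and the basal groups of back skin, and the tail basal groups), so they are given side by side. The log2 ratio of mitochondrial to nuclear reads was tested with exact two-sided permutation tests. The code was tested on simulated data.

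The members and lists were chosen with earlier results of these data known. Named genes were the mitochondrial members, up to 8 nuclear members with the smallest p past a test, the leading nuclear subunit of each complex by TPM, complex II, the limited-range complex IV isoforms, the 4 genes most like the mitochondrial mean, and up to 3 genes of each outside list past a test. Other genes (the further core subunits of complex I and Ndufaf5, for example) were named after their values were seen. The outside lists covered further chain genes, mitochondrial transcription and RNA handling, regulators, mitochondrial DNA maintenance, the tricarboxylic acid cycle, mitochondrial ribosomal proteins and mitochondrial ribosomal RNA.

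Alternatives were median-of-ratios scaling, no filter on low counts, DESeq2 1.42.0, limma 3.58.1 on log2(TPM + 1) for genes of at least 1 TPM, a replicate block, a fit of only the groups compared, and leaving out each library in turn. The labels number the replicates. Same-numbered libraries deviated together in back skin layers and in tail LRC and nLRC (correlations of deviations from the group mean 0.109 to 0.585, all above 0.1). In the bulge comparisons this held for most pairs but not all, with 0.036 to 0.233 in back and -0.044 to 0.426 in tail. Palate and tongue, with 2 pairs each, gave 0.283 and 0.047.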

Additional observations from a re-analysis of the deposited data

Results flagged for a closer look

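For 2 members every library moved one way with the label class in back spinous cells and the other way in tail basal cells. How many of all genes do so was not counted, so the number of 2 is not a result about the members. Ndufa4l2 was higher in LRC by 1.54 (log2) in back spinous cells and lower by a log2 difference of -1.90 in tail basal cells, both past the edgeR test. Ndufaf5, a complex I assembly factor, had -0.60 in back spinous cells, where LRC libraries had 9.42, 7.95 and 6.70 CPM and nLRC libraries 13.5, 12.4 and 10.7 CPM. In tail its difference was 0.22, with 15.4, 16.0 and 14.5 CPM against 13.5, 11.8 and 14.0 CPM, and neither value passed the test (edgeR adjusted p = 0.129 and 0.424). The difference between the tissues was not tested for either gene, since the tables were processed separately and the layers differ.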

How the results depend on the processing

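Counts of members past the test depended on the setting in most comparisons with calls, and the cause was not tested beyond what each alternative removes. The share of all genes called also moved, for tail LRC from 4.6% in the main fit to 13.7% with the replicate number as a block. Counts given without that share show only how the number depends on the fit. In limma on log2 TPM the count was 12 in place of 26 for back spinous LRC, 3 in place of 22 for back bulge, 1 in place of 5 for tail LRC, 33 in place of 8 for tail bulge, 14 in place of 25 for oral against tail and 1 in place of 11 for tongue against palate. With only the groups compared in the fit it was 68 for back spinous LRC, 5 for back bulge, 11 for the interaction and 2 each for spinous against basal and granular against spinous cells. Without back bulge library 2 in the fit it was 67 for back spinous LRC, 4 for the interaction and 1 each for the layer comparisons. DESeq2 called 20 for tail LRC, 15 for tail bulge and 1 each for granular against spinous cells, the interaction and tongue LRC. Without a filter on low counts it was 44 for tail LRC, 17 for tongue against palate, 2 for palate LRC and 1 each for tongue LRC and spinous against basal cells. With the replicate number as a block it was 34 for tail LRC, 18 for tail bulge and 1 for spinous against basal cells, and the block moved no other count by over 1.5 times.

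With each library left out in turn, the count ran from 8 to 27 for back spinous LRC, 6 to 58 for back bulge, 1 to 2 for tail LRC, 2 to 7 for tail bulge, 0 to 42 for palate LRC, 14 to 37 for oral against tail and 2 to 33 for tongue against palate. The log2 ratio of mitochondrial to nuclear reads ran from -0.085 to 0.11 for back basal LRC, -0.19 to 0.064 for back spinous LRC, -0.089 to 0.55 for palate LRC, -0.42 to 0.15 for tongue LRC, -0.024 to 0.086 for spinous against basal cells, -0.020 to 0.045 for tail bulge and -0.10 to 0.025 for oral against tail. For back bulge it ran from 0.50 to 0.97. With a bulge library left out no exact permutation p was under 0.05, which 2 against 6 libraries cannot reach. With all libraries every bulge library lay above every basal one, and leaving out a basal library cannot change that. As the mean log2 CPM of members it was 0.58 (exact permutation p = 0.143) in back bulge and -0.0040 in tail bulge. The count of 71 for tail against back basal cells, the 0 for back basal LRC and the other ratios were not moved in this sense by any of these settings. Of the values of single genes under the alternatives, 1030 stayed on the same side of the test, 225 lost the call and 3 changed sign, all in tail against back basal cells in limma on log2 TPM: mt-Co1 (-0.13), mt-Co2 (-0.72) and Sdha (-0.018). Median-of-ratios scaling moved the median of all genes by at most 0.06. Depth limits the low isoforms of complex IV, and the number of libraries limits the oral groups of 2.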

Other observations

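RNA of the proteins of the mitochondrial ribosome, which translates the 13 mitochondrial genes, was measured beside the chain. Of 80 genes none passed the edgeR test between tail LRC and nLRC, with 74 differences negative and a median of -0.40. Unadjusted edgeR p was under 0.05 for 18 of them, and the share of all genes at that threshold is not given. In back bulge 7 of 78 rose and 1 fell against basal cells, led by Mrps33 (1.57), beside 15.7% of all genes higher and 10.6% lower. In tail bulge 5 of 80 fell and 0 rose, led by Mrpl23 (-1.10), beside 10.4% of all genes lower. The call of Mrps33 was lost without back bulge library 2 (0.56, edgeR adjusted p = 0.159). Reads of the mitochondrial ribosomal RNAs were 3.34 to 7.21 times those of the 13 protein genes in back skin and 6.42 to 9.92 times in the other tables. In back bulge mt-Rnr2 and mt-Rnr1 rose by 1.86 and 1.78 with library 2, where these RNAs took 7% of reads beside 1.46 and 2.32% in the other bulge libraries. Without it the differences were 0.07 and -0.18 (edgeR adjusted p = 0.892 and 0.673).

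Among regulators, Ppara, a nuclear receptor of fatty acid use, fell by 2.40 in back bulge, and Myc by 0.76 there and by 0.53 in tail bulge. The calls of Myc were lost without library 2 in back bulge (edgeR adjusted p = 0.147) and without library 3 in tail bulge (0.0531). In oral against tail basal cells Esrra rose by 0.51, Esrrb differed by -3.34 and Sirt1 by -0.57.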
